A study of Mus musculus with 2 samples.

Results

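The translation initiation and elongation factors were taken as the genes whose name on the array begins with Eif or Eef, Eif2ak2 left out. The array held 61 such genes, and 54 of them were measured among 9929 measured genes in all. A gene counted as measured where the red or the green channel of a probe was well above background on both arrays, and its brightest probe stood for it. Deficient CD8+ T cells came from mice of genotype Bcl11bF/F/dLck-iCre. There Cre driven by the distal Lck promoter deletes the T-cell transcription factor Bcl11b in T cells, and the cells compared with them came from wild-type mice. Both groups were infected with Listeria monocytogenes-OVA, a bacterium that carries ovalbumin as a model antigen, and were taken at day 6, by negative selection, at a labelled purity of over 90%. The labels give 2 biological replicates and state neither which exons the deletion removes nor how old the mice were or whether animals were pooled. Each replicate is 1 array of a single slide, with deficient RNA in red (Cy5) and wild-type RNA in green (Cy3) on both, so an effect of the dye and one of genotype cannot be told apart.

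Translation begins when the cap-binding complex of eIF4E, eIF4G and the helicase eIF4A brings an mRNA to the small ribosomal subunit, which carries eIF1, eIF1A, eIF3 and the eIF2 complex with the initiator tRNA. Scanning to the start codon, release of eIF2 with the help of eIF5, and subunit joining by eIF5B follow, and eEF1A and eEF2 then drive each elongation step. Activated CD8+ T cells raise protein synthesis as they divide, and mTORC1 relieves eIF4E of its binding proteins in that state.

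Of the 54 factors, 3 fell and 0 rose in deficient cells (limma on the log2 ratio of red over green, Benjamini-Hochberg over all genes, adjusted p under 0.05). Those that fell were Eef1e1, Eif4g2 and Eif4a2. At an unadjusted limma p under 0.05 there were 5 lower and 1 higher, beside 1421 lower and 753 higher of all 9929 genes. The 3 lower factors are 5.56% of the 54, beside 5.97% of all genes tested that were lower and 3.67% that were higher, so their share lay near the background. Over the 54 factors the median log2 ratio of deficient over wild type was -0.20, against -0.12 over all genes. The factors also stayed close to 0, with 33 of 54 (61.1%) within 0.5 of it on the log2 scale, against 54.0% of all genes. Most of the distance from 0 stood on replicate 1, where 16 factors (29.6%) lay below -1, a 2-fold difference, against 21.6% of all genes. On replicate 2 0 of 54 factors lay below -1, against 2.52% of all genes.

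Promoter stretches are shown for 2 factors that fell, Eif4g2 having no window, and for 4 holders of the E-box in the cap-binding, eIF5A and elongation steps, to show where that motif stands. These 4 were picked after their values were seen and were not called. Their mean ratios, -1.07 to -0.66, are low among the 12 holders, which include Eif4a1 at -0.16, Eif4h at -0.02 and Eef2k at 0.50. Of Eif4e and Eif5a, which have several windows, 1 with the E-box is shown. They are from RefSeq, build GRCm38.p6, run from 100 bases before to 20 after the transcript start, and are written 5′ to 3′ on the strand of the gene. Capitals mark CACGTG (the E-box that MYC and USF proteins bind), TGACGTCA (the CRE that CREB and ATF proteins bind) and TATAAA (the TATA box).
Eef1e1, chr13:38659009-38659128, minus strand: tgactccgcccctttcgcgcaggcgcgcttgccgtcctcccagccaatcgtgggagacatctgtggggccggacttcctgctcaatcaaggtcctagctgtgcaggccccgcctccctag
Eif4a2, chr16:23107368-23107487, plus strand: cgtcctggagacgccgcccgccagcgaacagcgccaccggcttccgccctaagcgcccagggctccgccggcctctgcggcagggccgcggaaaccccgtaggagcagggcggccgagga
Eif4g1, chr16:20672627-20672746, plus strand: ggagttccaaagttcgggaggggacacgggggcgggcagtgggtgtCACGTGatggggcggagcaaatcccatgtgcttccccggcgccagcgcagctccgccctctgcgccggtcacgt
Eif4e, chr3:138527168-138527287, plus strand: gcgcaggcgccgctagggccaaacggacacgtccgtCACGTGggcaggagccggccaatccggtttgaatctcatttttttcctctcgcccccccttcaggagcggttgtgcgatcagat
Eif5a, chr11:69921367-69921486, minus strand: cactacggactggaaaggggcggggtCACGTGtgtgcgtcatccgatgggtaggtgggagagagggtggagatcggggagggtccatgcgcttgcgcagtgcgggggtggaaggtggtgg
Eef2, chr10:81176531-81176650, plus strand: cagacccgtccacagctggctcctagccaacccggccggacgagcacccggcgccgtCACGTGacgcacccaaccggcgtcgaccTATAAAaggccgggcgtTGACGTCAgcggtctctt

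Of the stretches shown, those of Eef1e1 and Eif4a2 hold none of the capitals, and Eef2 holds all 3 motifs without overlap. The search covered both strands of 300 bases per window, 250 before and 50 after each start, with CCGGAAGT (the ETS motif) as the fourth motif. Of the 54 factors, 43 had such a window, and a gene counted as a holder if any of its windows held the motif. The E-box stood in 12 of the 43 (27.9%), against 12.5% of 7107 tested genes with a window and 8.09% of all genes with a window. Its 12 holders were Eif1b, Eif3a, Eif3f, Eif3k, Eif4a1, Eif4e, Eif4g1, Eif4h, Eif5a, Eif5a2, Eef2 and Eef2k. Their median log2 ratio of deficient over wild type was -0.54 on replicate 1 and 0.06 on replicate 2, beside -0.37 and -0.02 for the 31 factors without it, so the sign turned between arrays and no direction is read from it. The ETS motif stood in 8 factors (18.6%), against 9.96% of tested genes and 4.31% of all genes. The CRE stood in Eef2 alone (2.33%, against 3.62% of tested genes and 2.03% of all genes). The TATA box stood in Eef2, Eif2s1, Eif3b and Eif3f (9.3%, against 9.19% of tested genes and 15.7% of all genes). Median GC content of the windows was 62.7% for the factors and 60.7% for tested genes, and 3 of the 4 motifs hold a CG.

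**Figure D1:**
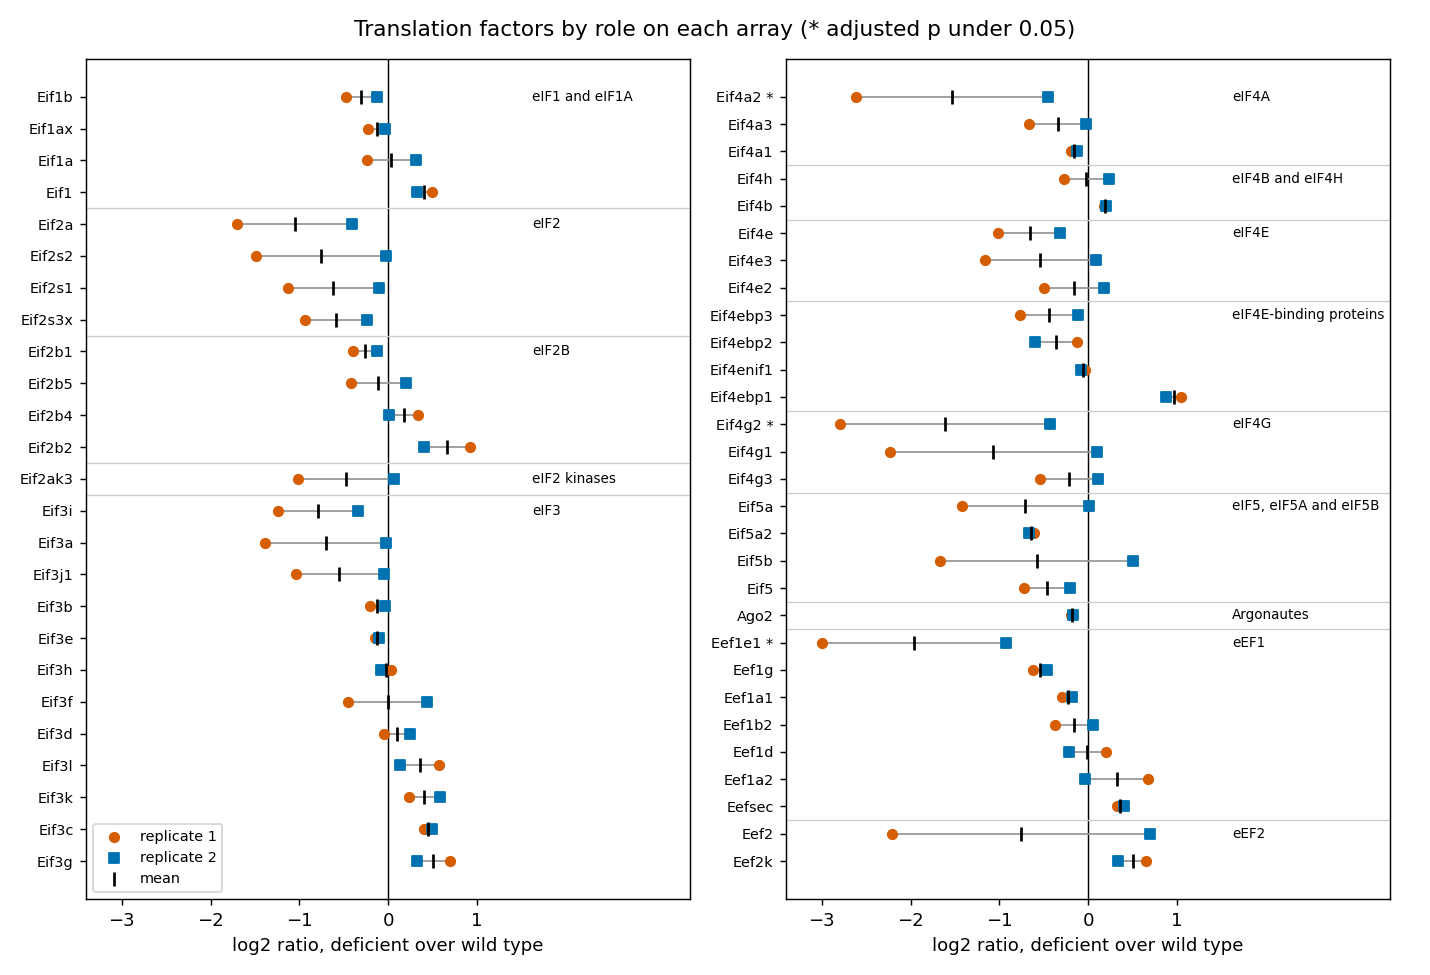
Log2 ratio of deficient over wild type on replicate 1 (circles) and replicate 2 (squares), with the mean as a bar, for the 54 measured factors grouped by role. An asterisk marks an adjusted p under 0.05. The lines reach furthest to the left on replicate 1, down to -3.0 for Eef1e1, while the squares lie between -0.93 and 0.88.

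The initiation factors that fell were Eif4g2 and Eif4a2, of the eIF4G and eIF4A groups. Eif4g2 (DAP5), an eIF4G relative that lacks the eIF4E-binding part, had normalized log2 intensities of 8.59 on replicate 1 and 10.65 on replicate 2 in deficient cells, against 11.39 and 11.08 in wild-type cells. Both deficient values lay below both wild-type values, and the deficient signal cleared the background limit on replicate 2 but not on replicate 1, where the ratio is thus set against a dim value. The log2 ratio was -2.80 on replicate 1 and -0.43 on replicate 2, with a mean of -1.61 ± 1.68 (SD, n = 2) and a limma adjusted p of 0.00336. With both channels required to be well above background, another probe stood for the gene, at -0.08 (limma adjusted p = 0.913). The probe lies on chromosome 7, 110863744 to 110863803, minus strand, in the array's coordinates on build NCBI36 (mm8), to which exons were not assigned here.

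Eif4a2, the second of the cytoplasmic eIF4A helicases, had log2 intensities of 10.33 and 12.49 in deficient cells, against 12.93 and 12.94 in wild-type cells. The groups did not overlap, although on replicate 2 they lay within 0.45 of each other. Its log2 ratio was -2.61 on replicate 1 and -0.45 on replicate 2 (mean -1.53 ± 1.53, SD, n = 2; limma adjusted p = 0.00635; chromosome 16, 23028733 to 23028792, plus strand, mm8). By its brightest probe the paralog Eif4a1 lay near 0, at -0.19 and -0.13. A second probe of Eif4a1, its deficient signal above the background limit on 1 of 2 arrays, gave -1.75 and -0.42. Eif4a3, the helicase of the exon junction complex, had -0.67 and -0.02. All 3 eIF4A genes were below 0 on both arrays, and limma called only Eif4a2.

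Eif4g1, the main scaffold of the cap-binding complex, had 8.43 and 10.56 in deficient cells, against 10.66 and 10.46 in wild-type cells. The low value was that of deficient cells on replicate 1 alone, where its ratio was -2.23, against 0.10 on replicate 2 (mean -1.07 ± 1.65, SD, n = 2; limma adjusted p = 0.0877). The third scaffold, Eif4g3, had ratios of -0.54 and 0.11. The cap-binding protein Eif4e had ratios of -1.01 and -0.32, its relative Eif4e2, which binds the cap without eIF4G, -0.50 and 0.18, and Eif4e3 -1.16 and 0.09. None of these passed. A second probe gave the opposite sign for Eif4e, at 0.32 and 0.02, and for Eif4e2, at 1.09 and 0.76, which put Eif4e2 at 0.38 with the mean of its probes. The helicase cofactors Eif4b, at 0.18 and 0.20, and Eif4h, at -0.27 and 0.23, lay close to 0 on both arrays.

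Among the proteins that bind eIF4E, Eif4ebp1 had the highest mean ratio of all 54 factors. It encodes 4E-BP1, the mTORC1 target that holds eIF4E away from eIF4G. Its log2 intensities were 11.15 and 10.75 in deficient cells, against 10.10 and 9.87 in wild-type cells, so the groups did not overlap. The ratios of 1.05 and 0.88 differed little between arrays (mean 0.97 ± 0.12, SD, n = 2), but did not pass (limma adjusted p = 0.134). Restricting the genes to those with both channels well above background made it the 1 factor called higher (limma adjusted p = 0.0203), beside 9.39% of all genes. Its adjusted p ran from 0.0203 to 0.679 over 13 alternatives. The other binding proteins lay on the opposite side: Eif4ebp2 had -0.12 and -0.60, Eif4ebp3 -0.77 and -0.11, and the transporter Eif4enif1 -0.03 and -0.08.

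**Figure D2:**
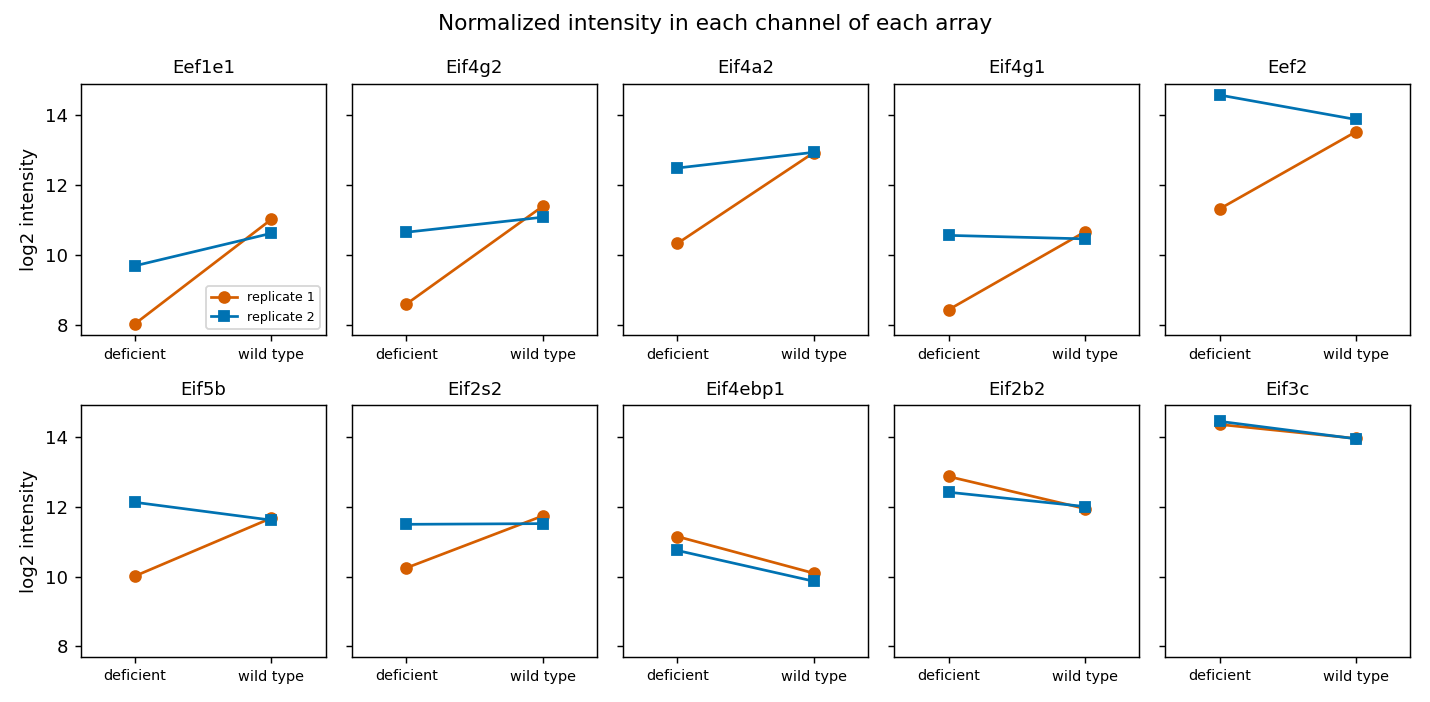
Normalized log2 intensity in deficient cells (left of each panel) and wild-type cells (right) for 10 factors, joined within replicate 1 (circles) and replicate 2 (squares). Intensities of different genes are not comparable, since probes differ. For Eef2 the deficient values are 11.32 and 14.58 and the wild-type values 13.53 and 13.88, whereas for Eif4ebp1 both lines run downward from deficient to wild type.

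The eIF2 complex, which delivers the initiator tRNA, was below 0 by its brightest probes, without a call. The beta subunit Eif2s2 had ratios of -1.49 and -0.02, the gamma subunit Eif2s3x -0.93 and -0.24, and the alpha subunit Eif2s1, whose phosphorylation halts initiation under stress, -1.13 and -0.10. Eif2a, which encodes the separate tRNA-binding factor eIF2A and is grouped here by name, had -1.70 and -0.41 (limma adjusted p = 0.0929). The deficient signal of Eif2a did not clear the background limit on any array, so only a bound is given, at least 1.43-fold higher in wild-type cells. The bound is the wild-type mean over the dim group's mean of the higher of its own and the lowest signal well above background. All 4 had both ratios below 0, as did 48.1% of the factors and 41.5% of all genes. Their replicate 2 values of -0.41 to -0.02 were small beside those of replicate 1. Further probes, measured in both channels on both arrays, lay near 0, at -0.07 and 0.09 for Eif2s2 and at 0.12 and 0.02 for Eif2s3x.

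The exchange factor eIF2B, which recharges eIF2 with GTP, lay on both sides of 0, from -0.26 for Eif2b1 to 0.66 for Eif2b2. Eif2b2 had ratios of 0.92 and 0.40, Eif2b4 0.34 and 0.01, Eif2b1 -0.39 and -0.13, and Eif2b5, the catalytic subunit, -0.42 and 0.20. Of the eIF2 kinases in the set, Eif2ak3 (PERK, the sensor of endoplasmic reticulum stress) was measured, at -1.02 and 0.07. The deficient signal of that probe cleared the background limit on replicate 2 alone, and a second probe, bright enough in deficient cells on both arrays, gave 1.15 and 0.19. The brightest probes of Eif2s1, Eif3j1, Eif4e3, Eif4g1, Eif4g2 and Eef1e1 likewise lacked a clear deficient signal on replicate 1. That of Eif2a lacked it on both arrays, so 8 factors have a dim value on replicate 1. The filter kept the probes of these 8 through the wild-type channel alone.

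The 12 measured subunits of eIF3, the scaffold that joins the small ribosomal subunit to the mRNA, had a median mean ratio of -0.01, and 0 of them passed in either direction. Eif3g had 0.70 and 0.33, Eif3c 0.40 and 0.50, and Eif3h 0.03 and -0.08. Eif3k (0.24 and 0.58) and Eif3l (0.57 and 0.14) lay above 0 on both arrays, and Eif3b, Eif3e, Eif3d and Eif3f within 0.15 of 0 in the mean. A second probe of Eif3e, its deficient signal above the background limit on 1 of 2 arrays, gave -0.88 and -0.40. The low members were Eif3i (-1.24 and -0.34), Eif3a (-1.39 and -0.02) and the loosely bound Eif3j1 (-1.04 and -0.05). Further probes, measured in both channels on both arrays, gave -1.15 and 0.77 for Eif3a and -0.23 and 0.12 for Eif3j1. By their brightest probes, subunits of this 1 complex spread from -0.79 to 0.51 in the mean, with 7 of 12 below 0.

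Among factors of start codon selection and subunit joining none was called. Eif1, which guards the choice of the start codon, had 0.49 and 0.33, its paralog Eif1b -0.47 and -0.13, Eif1ax -0.23 and -0.04, and Eif1a -0.24 and 0.31. By their brightest probes, all 4 genes of the eIF5, eIF5A and eIF5B group had a mean below 0, at -0.46 to -0.71. So did 40 of the 54 factors and 5616 of all 9929 genes. Eif5, which triggers GTP hydrolysis on eIF2, had -0.72 and -0.20, and Eif5a, which helps ribosomes over difficult stretches and carries hypusine, -1.42 and 0.01. Its paralog Eif5a2 had -0.61 and -0.67, with nearly the same ratio on both arrays. Eif5b, the GTPase of subunit joining, had deficient intensities of 10.02 and 12.13, against 11.68 and 11.62 in wild-type cells. By this probe, deficient cells were thus low on replicate 1 and high on replicate 2, with ratios of -1.67 and 0.51. Another probe, measured in both channels on both arrays, gave 0.24 and 0.72. The means of the 4 measured probes of Eif5b ran from -0.58 to 0.48.

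Among the elongation factors, Eef1e1 had the lowest ratio of the 54. It encodes AIMP3, an auxiliary protein of the multi-tRNA synthetase complex that shares a domain with the eEF1 subunits, and does not itself carry tRNA to the ribosome. Its log2 intensities were 8.03 and 9.69 in deficient cells, against 11.02 and 10.62 in wild-type cells. The groups did not overlap, and the deficient signal cleared the background limit on replicate 2 but not on replicate 1, where the ratio is again set against a dim value. The ratios were -3.0 and -0.93 (mean -1.96 ± 1.46, SD, n = 2; limma adjusted p = 0.000186; chromosome 13, 38653675 to 38653734, minus strand, mm8). The filter kept its probe through the wild-type channel alone, the one where its signal is higher. On replicate 2, where both signals were measured, it was among the lowest 3.25% of all genes. Given that filter, this rank is a description and no separate support.

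The subunits that deliver tRNA to the ribosome lay nearer to 0. Eef1a1, the main form of eEF1A, had -0.29 and -0.18, and Eef1a2, known from muscle and neurons, 0.68 and -0.04. Eef1g, Eef1b2 and Eef1d, of the complex that recharges eEF1A, had -0.62 and -0.46, -0.37 and 0.05, and 0.20 and -0.21. Eefsec, which inserts selenocysteine, had 0.33 and 0.40.

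Eef2, the translocase that moves the ribosome by 1 codon, gave the widest split between arrays. Its log2 intensities were 11.32 and 14.58 in deficient cells, against 13.53 and 13.88 in wild-type cells. Deficient cells were the lowest value on replicate 1 and the highest on replicate 2, so the ratios were -2.21 and 0.70 (mean -0.76 ± 2.06, SD, n = 2; limma adjusted p = 0.274). Its kinase Eef2k, which inhibits it, had 0.65 and 0.34, with a wild-type signal that cleared the background limit on 1 of 2 arrays. Ago2, which the array lists as Eif2c2 and which acts in RNA silencing rather than as an initiation factor, had -0.19 and -0.17.

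The split between arrays came with the deficient channel, which is red on both, so the dye and the cells cannot be told apart here. The median intensity of negative controls was 968 in red and 326.5 in green on replicate 1. On replicate 2 it was 707 in red and 406 in green. Across the factors, the median absolute difference in normalized intensity between the 2 arrays was 0.42 in deficient cells and 0.14 in wild-type cells on the log2 scale. Over all genes it was 0.46 and 0.14. It exceeded 1 in 11 factors (20.4%) in deficient cells, near the 17% of all genes, and in 0 in wild-type cells, against 0.776%. The largest gap among the factors was 3.26 (Eef2) in deficient cells and 0.48 in wild-type cells. Of the 54 factors, 41 (75.9%) had a lower ratio on replicate 1 than on replicate 2, against 61.8% of all genes. The SD of the ratios over the factors was 0.93 on replicate 1 and 0.34 on replicate 2, against 0.96 and 0.65 over all genes. Both arrays gave a ratio below 0 for 26 factors, above 0 for 11 (20.4%, against 32.5% of all genes), and opposite signs for 17. Pearson r between arrays over the 54 factors was 0.45 and Spearman rho 0.41, where the genes share both arrays and the dye orientation and are not replicates. On replicate 1 alone 1 factor lay above 1, Eif4ebp1, beside 7.6% of all genes, and on replicate 2 0, beside 6.4%.

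**Figure D3:**
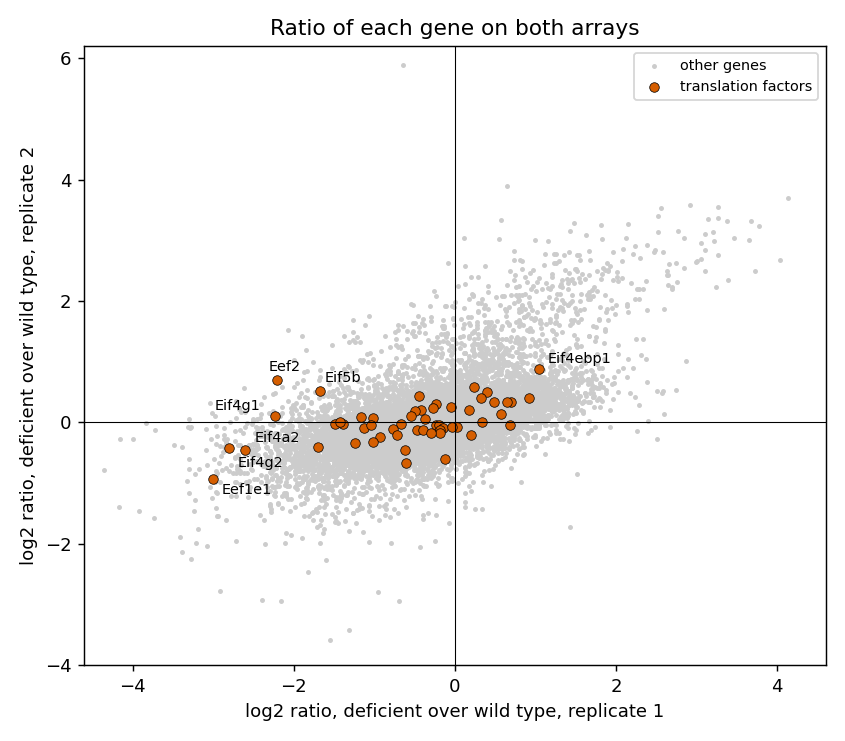
Log2 ratio of deficient over wild type on replicate 1 (horizontal) against replicate 2 (vertical) for the 54 factors (large points) and the 9875 other measured genes (grey). The factors spread widely along the horizontal axis, from -3.0 to 1.05, and narrowly along the vertical one, from -0.93 to 0.88.

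Separate probes of a gene did not always give the same ratio. Of 26 factors with several measured probes, 15 had means of 1 sign and 11 of both, and in 5 the means spread by over 1. Eif4g2 had 3 measured probes. The brightest gave -2.80 and -0.43, a probe further upstream in the gene (110865523 to 110865582) -2.88 and -0.54, and the one nearest the 3′ end (110862273 to 110862332) -0.12 and -0.04. The call was made on the brightest probe. The upstream probe had a similar mean of -1.71, with a deficient signal above the background limit on 1 of 2 arrays, and was not tested separately. With the mean of its probes Eif4g2 was not called. The 3′ probe, whose deficient signal cleared the background limit on both arrays, showed almost no difference. Eif4a2 had a second probe, at -1.89 and -0.19, low on replicate 1 as the first was, while Eef1e1 had 1 probe.

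For Eef1a1 the brightest probe gave -0.29 and -0.18 and the other -3.60 and -0.16, so that replicate 1 alone separates them. Eef2 had further probes at -0.66 and 0.84 and at 0.04 and -0.45, and thus no direction held over its probes on either array. Eif5 had its 3 probes below 0 on both arrays, with means of -0.46, -0.97 and -1.39. Over 25 factors with probes on 1 strand and chromosome, the upstream probe was the lower in 16 on replicate 1 and in 10 on replicate 2, with a median difference of -0.07 and 0.09 on the log2 scale. Probe sequences were not used here, so whether a probe also reads a close paralog or a processed copy (Eef1a1, Eif4a1 with Eif4a2, Eif1ax with Eif1a) was not tested.

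**Figure D4:**
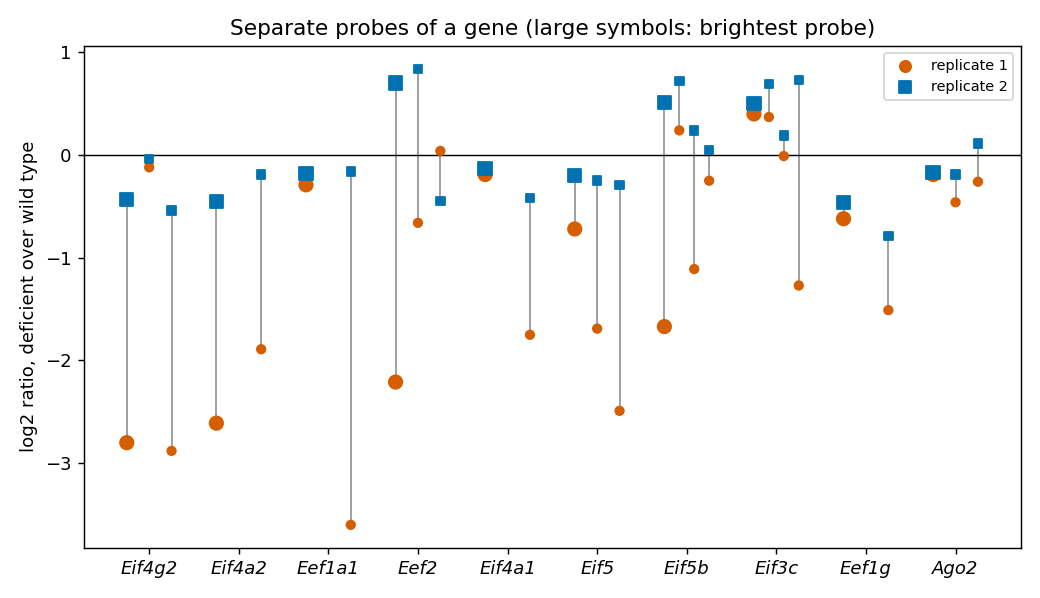
Log2 ratio of deficient over wild type for each measured probe of 10 factors, on replicate 1 (circles) and replicate 2 (squares), joined per probe. Large symbols mark the brightest probe, and the lowest point is a probe of Eef1a1 at -3.60 on replicate 1.

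Other genes of translation were taken in 8 lists. Of 70 measured, 0 rose and 2 fell (2.86%, against 5.97% of all genes), with a median ratio of -0.24. Those that fell were the aspartyl-tRNA synthetase Dars (-2.52 and -0.60; limma adjusted p = 0.00512) and the release factor partner Gspt1, or eRF3a (-1.68 and -0.72; limma adjusted p = 0.0458), each with a deficient signal that cleared the background limit on 1 of 2 arrays. Release and recycling factors had the lowest median of the lists, -0.86 over 5 genes (-1.49 on replicate 1 and -0.24 on replicate 2), with the recycling ATPase Abce1 at -1.53 and -0.49. The hypusine and diphthamide enzymes that modify eIF5A and eEF2 had a median of -0.64 over 7 (-1.04 and -0.22), with Dohh at 0.34 and -0.04 and Dph5 at -0.50 and -0.78. The 18 tRNA synthetases and scaffolds had a median of -0.44 (-0.69 and -0.20), with Sars at 0.14 and -0.38 and Qars at 0.15 and 0.28.

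Genes that control eIF4E and eIF2 had medians near 0. The 10 genes of mTORC1 and MNK input had a median of -0.14 (-0.35 and -0.11), with the eIF4E kinase Mknk2 at 0.11 and 0.22 and the mTORC1 activator Rheb at -0.37 and 0.33. The 8 stress response genes had a median of 0.12 that turned sign between arrays (-0.13 on replicate 1 and 0.20 on replicate 2), with Ppp1r15a, which returns phosphorylated eIF2 to use, at 0.27 and 0.44 and Impact at 0.34 and 0.15, and, chosen after their values were seen, Ppp1r15b at -1.91 and 0.25 and Ddit3 at -0.92 and -0.10. Poly(A)-binding proteins and partners had a median of -0.63 over 5 (-1.05 and -0.14), with Pabpc1 at 0.05 and 0.72 and Paip2 at -1.05 and -0.20. Mitochondrial factors had a median of -0.15 over 9 (-0.25 and -0.09), with Tufm at 0.01 and -0.32 and Mrrf at -0.25 and -0.21. Noncanonical factors and helicases had a median of -0.05 over 8 (-0.04 and -0.05), with Rack1 at 0.88 and -0.08 and Mcts1 at 0.39 and -0.03. Initiation factors under older array names, picked after their names were seen, were not called either: Eif6 had a mean of 0.16, Eif3m 0.12, Eif2d -0.03 and Eif1ad -0.81.

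Bcl11b itself had ratios of -0.69 and -2.95 (mean -1.82 ± 1.60, SD, n = 2; limma adjusted p = 0.000655), so its larger fall was on replicate 2 and that of the lower factors on replicate 1. Markers of other cells moved with genotype. All 11 macrophage markers rose, with mean log2 intensities over the list of 12.94 and 13.12 in deficient cells, against 10.31 and 10 in wild-type cells. Of 8 B-cell markers 6 rose (13.11 and 13.31, against 11.99 and 11.07), of 7 neutrophil markers 3 (11.06 and 10.83, against 9.69 and 9.20), and of 4 erythroid markers 4. Of 5 NK-cell markers 3 rose, of which Fcer1g and Tyrobp are also expressed by macrophages, beside Klrb1c, and Eomes (0.81) and Ncr1 (limma adjusted p = 0.378) did not pass. Of 9 CD8 T-cell markers 4 fell, Cd3e, Cd3g, Cd247 and Tcra, with list means of 12 and 11.94 in deficient cells, against 13.40 and 13.48 in wild-type cells. The remaining 5, Cd8a and Cd8b1 among them, did not pass, at -0.86 to -1.17. The part of these cells in the ratios of the translation factors was not tested, and fewer cells of a type and less RNA per cell cannot be told apart in such bulk samples. Gene spots well above background made up 26% and 31.1% in deficient cells, against 32.4% and 28.9% in wild-type cells.

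The calls rest on few arrays, and the 2 arrays limit the precision. The fit gave every gene a standard error of 0.42, so a call meant a mean beyond 1.18 on the log2 scale, whatever the gene's own spread. Without replicate 1, which leaves 1 array and no test, the ratios of Eef1e1, Eif4g2 and Eif4a2 are -0.93, -0.43 and -0.45. Over the 12 or 13 alternatives in processing that could be fitted, Eef1e1 passed in 9 of 12, Eif4a2 in 8 of 13 and Eif4g2 in 6 of 13. The filter on both channels leaves Eef1e1 out, so it is not among its 12. Their adjusted p ran from 3.85e-05 to 0.269, from 0.000431 to 0.285 and from 0.00115 to 0.913. In each alternative the 3 ratios were below 0, with Eif4g2 at -0.08 where both channels had to be well above background, since its 3′ probe then stood for the gene. Of the 54 factors, 49 passed in none of these alternatives. The share of all genes called moved too: 5.65% were lower and 5.4% higher with each array centred on its genes, 3.5% and 0.695% with median centring, 1.9% and 2.95% without background correction, 0.655% and 0.504% with the Feature Extraction ratios, and 1.77% and 2.35% with a background surface fitted to each array. The filter on both channels gave 3.62% lower, and 0% were called in either direction with separate channels or without a filter on dim probes.

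**Figure D5:**
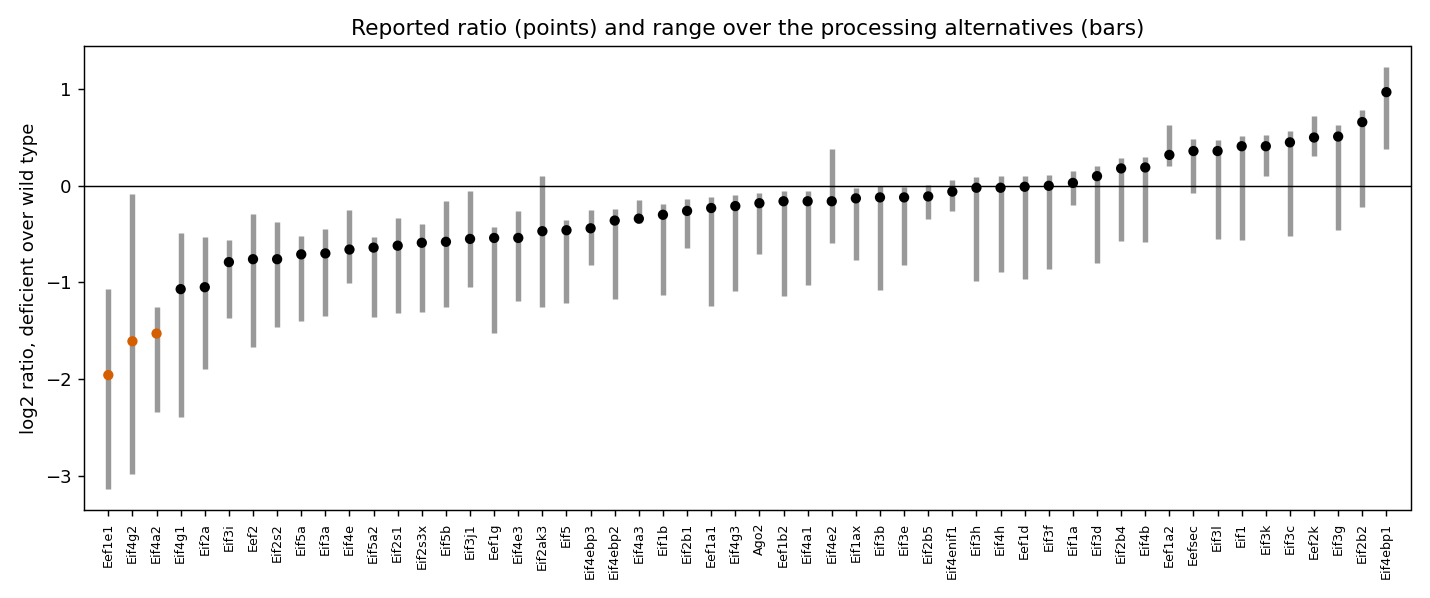
Mean log2 ratio of deficient over wild type for each of the 54 factors (points, from lowest to highest) with its range over the processing alternatives (grey bars). Points of the 3 factors with an adjusted p under 0.05 are in orange. The bars of Eef1e1, Eif4g2 and Eif4a2 stay below 0, Eif4g2 reaching -0.08, and that of Eif4ebp1 stays above 0, from 0.38 to 1.23.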

How the data were processed

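Gene expression was measured on 2 2-colour Agilent arrays, 1 per biological replicate. Per the labels, RNA was linearly amplified and labelled chemically. Scanner output gives each spot's intensity, as the mean signal and the median of the background around it, from Agilent Feature Extraction 9.5.3.1, per the file headers. The deposited log10 ratio of red over green, from the same program, was used as an alternative, and the deposited value table repeats it within 0.005 (log10), and its column medians are 0. Red is deficient RNA per the labels.

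Normexp (offset 50) corrected the background and loess normalized the ratios of each array. Control spots had weight 0, outlier spots were left out and spots of a probe averaged. That left 12619 probes and 9929 genes, of which the factors had 89 of 139 probes. Names were updated through RefSeq (GRCm38.p6). Log2 ratios were set against 0 in limma 3.58.1 (R 4.3.3; lmFit, eBayes, two-sided, Benjamini-Hochberg over all genes), with statmod 1.5.0 for separate channels. The estimated prior degrees of freedom were infinite. Channel values are those after loess and Aquantile. Both arrays lie on 1 slide, so no batch could be tested. The procedure was tested on simulated data.

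Of the 61 factors, 7 were not measured (Ago1, Ago3, Ago4, Eif2ak1, Eif2ak4, Eif2b3 and Eif2s3y). Any measured factor could be named, and ratios per array are given at least for those that passed and the 3 brightest of each role group, with other members added to describe each group. Also named were the called genes and the 2 brightest of each other list, Bcl11b and the marker genes. The members and lists were chosen with earlier results of these data known. The labels do not say whether replicates came from separate mice. The limma p-values set each mean against a variance pooled over all genes, so they measure neither a gene's own spread nor that between mice.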

Additional observations from a re-analysis of the deposited data

How the results depend on the processing

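The number of factors called lower was 3 and moved to 0 with the Feature Extraction ratios, to 0 without a filter on dim probes (4 lower and 5 higher at an unadjusted p under 0.05) and to 0 with separate channels in limma (2 lower and 1 higher unadjusted). It was 1 without background correction (Eef1e1), 1 with the fitted background surface (Eef1e1) and 1 where both channels had to be well above background (Eif4a2, with 1 factor higher, Eif4ebp1). Median centring in place of loess gave 4, adding Eef2 at -1.67, and put the median of the factors at -0.86, against -0.41 over all genes, where loess gave -0.20 and -0.12. Called genes in all, 364 higher and 593 lower, became 233 and 176 with the fitted surface, 50 and 65 with the Feature Extraction ratios, 69 and 348 with median centring, 547 and 211 with the filter on both channels, and 0 and 0 without a filter (5116 unadjusted) or with separate channels (1985 unadjusted). Without background correction 189 were lower. Without a filter 61 factors and 27596 genes were tested, and with separate channels 54 and 9929. Lower genes made up 62.0% of the calls, 83.5% with median centring, 39.2% without background correction, 43.0% with the fitted surface, 51.1% with each array centred on its genes and 27.8% with the filter on both channels. Of the other translation genes 2 were lower, against 1 with a normexp offset of 16, with median centring or with centred genes, and 0 with no background correction, the Feature Extraction ratios, the fitted surface, no filter, both channels or separate channels. The cause was not tested. The median of the factors ran from -0.41 without replicate 2 to -0.02 without replicate 1, and counts of calls need both arrays. The ratio within each array already pairs the genotypes, so no further block was fitted. Fewer spots well above background in the deficient channel of replicate 1 (26%) limit what that array measured of dim factors.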
